A study of Arabidopsis thaliana with 40 samples.

Results

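The transcriptome of the *ubp12/13* double mutant was compared with that of wt (Col-0) across pathways and gene families rather than by its largest changes. All nuclear genes (IDs AT1G to AT5G) counted in the 3 *ubp12/13* and the 3 wt libraries were taken, and 17916 of 33323 such IDs passed the filter on low counts (at least 2 of the 6 libraries above 1 CPM, that is, counts scaled to the library total). The double mutant carries the T-DNA insertion alleles *ubp12-1* and *ubp13-3* in the Col-0 background. As *ubp13-3* is a weak allele, the plants are not null for both proteins, and they are severely stunted and sterile, so that the line is kept heterozygous for *ubp13-3*. Seedlings of both genotypes had grown for 15 days on medium and were harvested whole 6 to 8 h into the light period, as 3 biological replicates. Whole seedlings mix all organs, so that fewer cells of a type and less RNA per cell cannot be told apart in any result below.

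UBP12 and UBP13 are closely related ubiquitin-specific proteases that remove ubiquitin from histone H2A, the mark H2Aub1 that Polycomb repressive complex 1 sets, and they also act on other proteins. Genes under Polycomb control in *Arabidopsis* include many that respond to stress, hormones and development. The families described below belong mainly to such responses: jasmonate, a hormone made from chloroplast fatty acids upon wounding, abscisic acid, the hormone of water deficit, the circadian clock, and the genes of cell division and cell walls that serve growth.

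The libraries held 6545534 to 9494373 nuclear counts in wt and 12145023 to 15225396 in *ubp12/13*, so that every mutant library was deeper than every wt library. Chloroplast and mitochondrial genes took 6.15% of the counts in wt replicate 3 and 0.268% to 0.684% in the other 5 libraries. *UBP12* had 103, 105 and 100.03 CPM in wt and 35.1, 28.0 and 37.6 in *ubp12/13*, while *UBP13* had 64.8, 65.8 and 66.4 CPM against 80.7, 80.8 and 83.8, and gene counts do not show which part of its transcript was read. Among the tissue markers, the 12 leaf mesophyll markers summed to 113209 to 128675 CPM in wt and to 80503 to 92447 CPM in *ubp12/13*, and the 18 root markers to 53.2 to 56.0 CPM and 55.9 to 61.7 CPM. The 12 guard cell and trichome markers summed to 115 to 118 CPM and 78.5 to 98.2 CPM. The 11 flower and pollen markers (3.27 to 7.48 CPM and 3.45 to 4.21 CPM) and the 12 seed markers (0.909 to 1.69 CPM and 0.488 to 0.862 CPM) were close to the floor in both genotypes, with 1 and 7 of them at 0 in all 6 libraries. Of the 4 root markers tested, *CASP1*, a Casparian strip protein of the root endodermis, had 2 counts in wt against 68 in *ubp12/13*, a ratio of 18.4 (95% exact counting interval 4.91 to 155), while its relative *CASP2* fell (log2FC −1.22, SE 0.33, edgeR adjusted p = 0.0227) and lost this call without any 1 of 4 libraries (wt replicates 2 and 3, *ubp12/13* replicates 1 and 2). *CASP1* had no wt library over 1 CPM and *CASP2* no mutant library over 1 CPM. Neither was therefore tested when CPM over 1 was required in all 6 libraries. The call of *CASP2* was also lost with DESeq2 as an alternative, and with the 12 RNA libraries of the series fitted together (adjusted p = 0.0817). The part of tissue proportions in the results below was not tested.

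In total, 1064 genes were higher in *ubp12/13* (5.94% of those tested) and 720 were lower (4.02%), where a call needed a change of 1 or more on the log2 scale in either direction and an adjusted p below 0.05 in edgeR's quasi-likelihood test, the source of all adjusted p-values given here. Together these were 1784 genes, or 9.96% of those tested. Regardless of a call, all 3 mutant libraries lay above all 3 wt libraries for 23.5% of the genes tested and below them for 23.1%. Most of these changes were moderate. The fold change had a median of 2.98 among the higher and 2.61 among the lower genes, 716 genes rose and 572 fell by a log2FC under 2, and only 114 and 60 reached a log2FC of 3. Of the calls, 59.6% were higher. When libraries were scaled by their totals alone, the median log2FC of all genes moved to 0.15, and 71.6% of the calls were higher, so that changes are given here relative to the TMM scale, on which this median was close to 0. Of the 111 gene lists counted, 74 were marked for description, either because they had at least 5 tested members and a share of calls in 1 direction of at least 2 times the share over all genes, or, whatever their calls, as lists of chromatin genes or tissue markers. As most were picked for these shares, the shares are a description of the calls and carry no test.

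**Figure D1:**
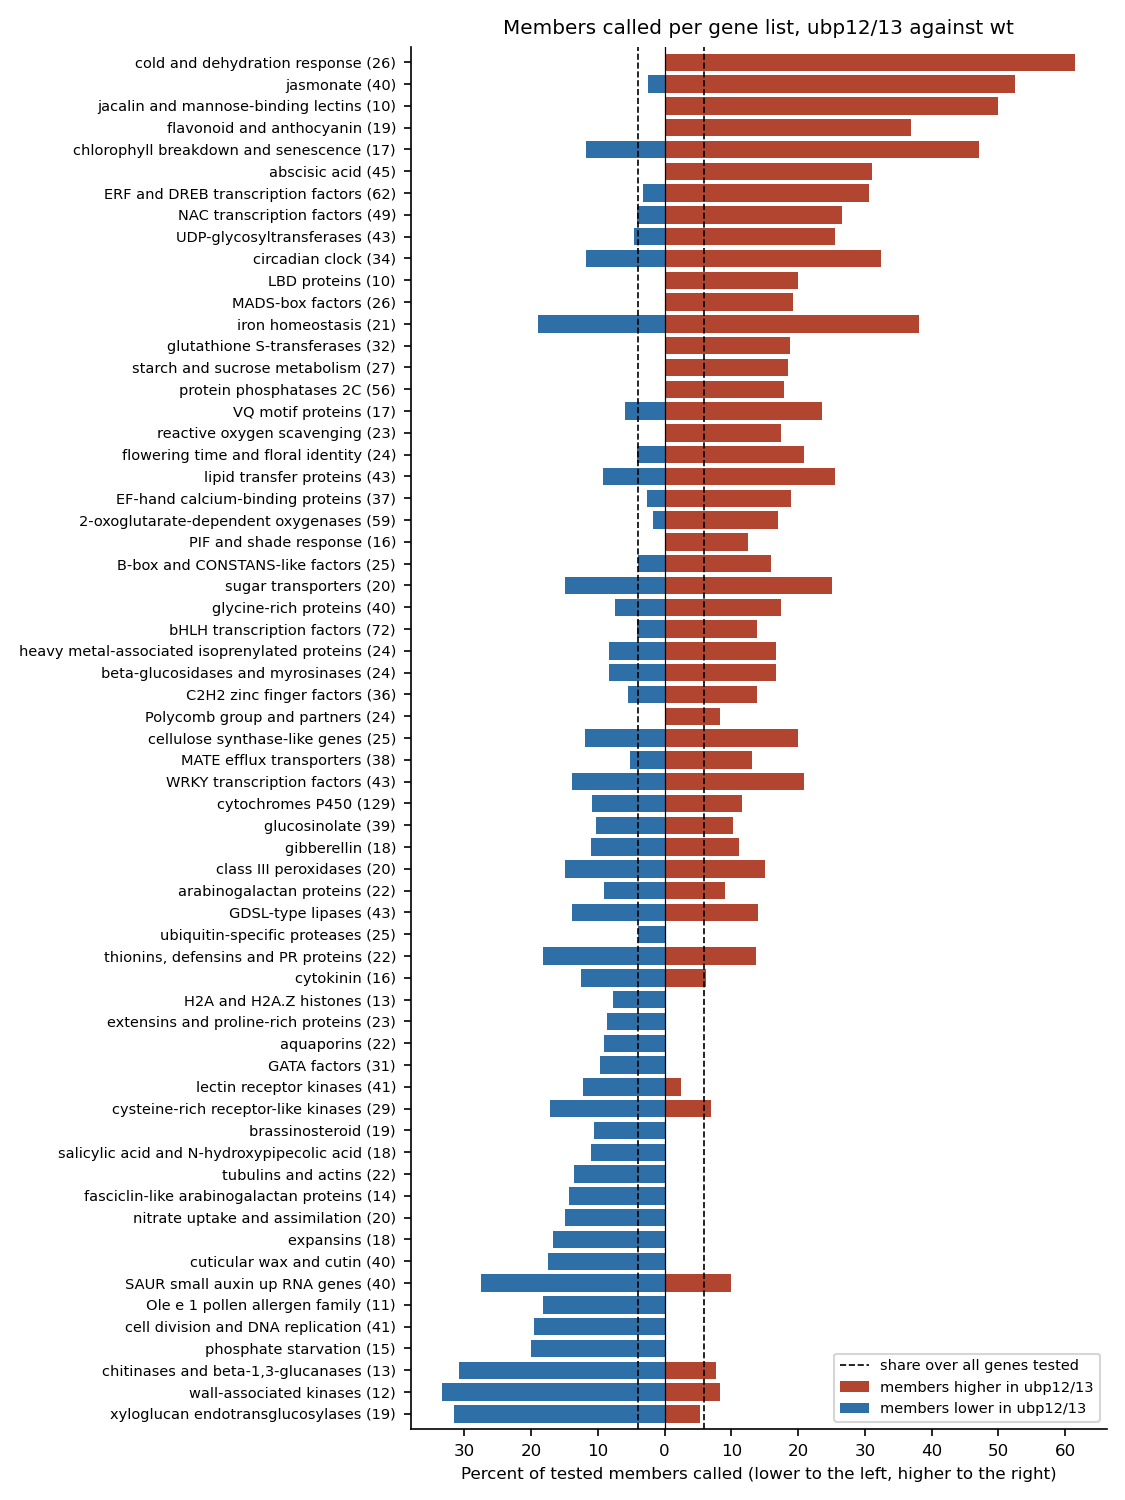
Percent of tested members called higher (to the right) and lower (to the left) in *ubp12/13* for the 63 gene lists marked for description with at least 10 tested members, tissue markers left out, with the number tested in brackets. Dashed lines mark the shares over all genes tested (5.94% higher and 4.02% lower). Cold and dehydration response and jasmonate genes stand at the top, and wall-associated kinases and xyloglucan endotransglucosylases at the bottom.

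Jasmonate genes had higher calls in every role counted. Of 47 genes, 40 passed the filter, and 21 of these were higher and 1 was lower, with a median log2FC of 1.28 over the 40. Of these 40 genes, 1 was tested through its *ubp12/13* values alone, with no wt library over 1 CPM, and 1 through its wt values alone. In the biosynthesis arm, 9 of 14 genes were higher. *LOX2*, the lipoxygenase that feeds oxygenated linolenic acid into the pathway, had 253, 115 and 116 CPM in wt and 1849, 1666 and 1916 CPM in *ubp12/13* (11.2-fold, log2FC 3.49, SE 0.30, adjusted p = 1.3e-04). The libraries of both genotypes were well apart, with wt replicate 1 the highest of the wt group. *AOS*, allene oxide synthase, the next enzyme, rose from 171, 169 and 177 CPM to 543, 479 and 586 CPM (3.11-fold, log2FC 1.64, SE 0.10, adjusted p = 2.9e-05). *AOC1*, an allene oxide cyclase, rose from 19.4, 25.2 and 14.8 CPM to 152, 129 and 206 CPM (8.13-fold, log2FC 3.02, SE 0.23). Its neighbours *AOC2* (log2FC 2.31) and *AOC3* (log2FC 2.45) on chromosome 3 were also higher, but the coding sequences of the 3 copies are alike, so that the split of reads among them is uncertain. *OPR3*, the peroxisomal reductase of the pathway, had 18.7, 17.5 and 12.8 CPM in wt and 108, 69.4 and 177 CPM in *ubp12/13* (7.14-fold, log2FC 2.84, SE 0.33). *LOX4*, a further lipoxygenase, had 4.63, 11.4 and 2.93 CPM against 121, 40.8 and 156 CPM (16.4-fold, log2FC 4.04, SE 0.58, adjusted p = 0.00129). For *OPR3* and *LOX4*, *ubp12/13* replicate 2 was the lowest mutant library and still lay above all of wt.

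JAZ proteins repress the jasmonate response and are themselves induced by it, which closes a feedback loop. Of 15 signalling genes, 6 were higher. *JAZ1* had 5.08, 6.75 and 4.23 CPM in wt and 59.7, 54.0 and 73.4 CPM in *ubp12/13* (11.5-fold, log2FC 3.53, SE 0.18, adjusted p = 1.9e-05), and *JAZ5* 2.37, 1.69 and 1.46 CPM against 35.1, 27.2 and 56.0 CPM (20.7-fold, log2FC 4.37, SE 0.35). *JAZ10* was not called over all libraries: it had 1.47, 1.3 and 1.63 CPM in wt and 2.59, 1.59 and 6.51 CPM in the mutant (log2FC 1.26, SE 0.56, adjusted p = 0.122), where *ubp12/13* replicate 2 lay within the wt range. Without that library it was called (log2FC 1.64, adjusted p = 0.0203). *AT5G05600*, a 2-oxoglutarate-dependent oxygenase that hydroxylates jasmonate and so inactivates it, rose from 10.9, 12.5 and 6.02 CPM to 81.6, 74.5 and 133 CPM (9.66-fold, log2FC 3.27, SE 0.29). It was the only one of 5 turnover genes tested that was called.

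Of 6 output genes tested, 5 were higher. *VSP2*, a vegetative storage protein of the wound branch, rose from 73.1, 54.3 and 80.4 CPM to 169, 328 and 328 CPM (3.97-fold, log2FC 1.99, SE 0.26, adjusted p = 8.1e-04). *THI2.1*, a thionin, had 1 count over the 3 wt libraries against 650 in *ubp12/13*, a ratio of 352 with a 95% exact counting interval of 63.0 to 13932. The only lower gene of the list, named here after its value was seen, was *PDF1.2*, a plant defensin induced by jasmonate together with ethylene, with 11.3, 7.66 and 0.163 CPM in wt and 0.548, 0.488 and 0.470 CPM in *ubp12/13* (log2FC −3.70, SE 0.88, adjusted p = 0.0134). The groups overlapped through wt replicate 3. Without *ubp12/13* replicate 1 the call was lost (adjusted p = 0.0503), and without wt replicate 1 or wt replicate 2 the gene no longer passed the filter on low counts. Close relatives of this gene may share its reads.

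A cluster of jacalin-type lectins and myrosinase-binding proteins on chromosome 1, genes known to respond to jasmonate, moved with the pathway. *MBP1*, myrosinase-binding protein 1, rose from 12.0, 10 and 8.95 CPM to 685, 661 and 778 CPM (68.1-fold, log2FC 6.09, SE 0.14, adjusted p = 4.0e-07). *MBP2* next to it rose from 9.26, 8.44 and 9.43 CPM to 78.0, 74.1 and 95.9 CPM (9.13-fold), and *AT1G52000*, the third gene of the run, from 49.0, 34.3 and 46.5 CPM to 700.0, 689 and 811 CPM (17.0-fold, log2FC 4.08). All 3 genes lie within chr1:19333088-19352791 and resemble each other, so that reads may be shared. The mutant replicates were close to each other for each of them. Of the 10 jacalin and mannose-binding lectins tested among 42, 5 were higher, *AT1G52000* among them, and 0 were lower. *MBP1* and *MBP2* are not in that list but among the genes of glucosinolate breakdown and binding. Of 11 such genes 3 were higher and 1 was lower. On the same chromosome, *BGLU18* encodes a beta-glucosidase of ER bodies that can release abscisic acid from its glucose ester, and it had 136, 132 and 118 CPM in wt against 2701, 2613 and 3286 CPM in *ubp12/13* (22.3-fold, log2FC 4.48, SE 0.13, adjusted p = 7.4e-07). The myrosinases themselves, which cleave glucosinolates, went the other way: *TGG2* fell from 833, 762 and 689 CPM to 231, 264 and 228 CPM (log2FC −1.66, SE 0.10, adjusted p = 3.8e-05), and *TGG1* from 2563, 2371 and 2367 CPM to 1446, 1530 and 1357 CPM, a smaller difference under the fold minimum (log2FC −0.75, SE 0.08, adjusted p = 3.8e-04). In glucosinolate synthesis, 0 genes were higher and 2 lower of 18 in the aliphatic branch, and 1 higher and 1 lower of 10 in the indolic branch. *IMS2*, a methylthioalkylmalate synthase of the aliphatic branch, fell from 3.95, 2.99 and 4.23 CPM to 0.157, 0 and 0.235 CPM (log2FC −4.82, SE 0.51).

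Cold and dehydration genes formed the list with the largest share of higher members. Of 30 genes, 26 passed the filter, 16 of these were higher and 0 were lower, with a median log2FC of 1.53. The promoters of 2 of them are shown because they hold the binding motifs of the 2 best known regulator families of this response, the CBF and DREB factors (DRE core, CCGAC) and the bZIP factors of the abscisic acid response (ABRE core, ACGTG). They run from 250 bases before to 50 after the annotated start (RefSeq, TAIR10.1), *COR15A* at chr2:17712281-17712580 on the minus strand and *LTI65* at chr5:21236771-21237070 on the plus strand, with both motifs in capitals on either strand. A G-box (CACGTG) holds the ABRE core on both strands and counts as 2 of them.
COR15A: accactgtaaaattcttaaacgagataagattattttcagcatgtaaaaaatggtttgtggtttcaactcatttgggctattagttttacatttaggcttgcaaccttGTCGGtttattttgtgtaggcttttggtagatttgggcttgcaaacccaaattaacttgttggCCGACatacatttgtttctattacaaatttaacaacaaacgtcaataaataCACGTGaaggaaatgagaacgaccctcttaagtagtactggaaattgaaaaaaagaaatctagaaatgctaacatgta
LTI65: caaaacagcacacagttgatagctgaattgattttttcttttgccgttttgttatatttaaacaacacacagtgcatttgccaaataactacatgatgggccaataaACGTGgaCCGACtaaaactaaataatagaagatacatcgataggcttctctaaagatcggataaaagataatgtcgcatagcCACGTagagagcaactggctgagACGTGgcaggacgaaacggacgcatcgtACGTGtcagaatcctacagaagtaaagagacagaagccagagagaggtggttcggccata
In *COR15A* the 2 DRE cores start at −142 and −79 from the start of the gene, and a G-box at −28. In *LTI65* the 4 ABRE cores start at −143, −61, −38 and −10, with a DRE core at −136.

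*COR15A*, which encodes a chloroplast protein that protects membranes during freezing, had 24.6, 28.2 and 37.2 CPM in wt and 188, 153 and 199 CPM in *ubp12/13* (6.03-fold, log2FC 2.59, SE 0.17, adjusted p = 4.0e-05). *LTI65* (*RD29B*), a classical reporter of abscisic acid, had 0.226, 0.130 and 0.163 CPM against 7.68, 9.76 and 17.5 CPM (61.9-fold, log2FC 5.95, SE 0.57, adjusted p = 2.0e-04), so that the transcript was next to undetected in each wt library. Its neighbour and relative *LTI78* (*RD29A*) rose less, from 28.9, 24.5 and 36.3 CPM to 88.7, 79.2 and 115 CPM (3.17-fold, log2FC 1.66, SE 0.18). *KIN1*, a small hydrophilic cold-induced protein, rose from 3.16, 2.6 and 2.6 CPM to 25.7, 17.4 and 21.6 CPM (7.63-fold, log2FC 2.93, SE 0.20). The dehydrin gene *RAB18* rose from 62.5, 41.4 and 61.8 CPM to 133, 173 and 226 CPM (3.21-fold, log2FC 1.68, SE 0.22). *COR47*, another dehydrin, had 133, 200.3 and 219 CPM against 373, 285 and 462 CPM, just past the fold minimum (log2FC 1.02, SE 0.22, adjusted p = 0.00773), and it fell under that minimum without wt replicate 1 (log2FC 0.83) or without *ubp12/13* replicate 3 (log2FC 0.84). Groups did not overlap for any gene of this paragraph, though this was a condition for genes named by the size of their change. All mutant libraries lay above wt for 23.5% of all genes tested. Of the 17 protective proteins tested, 11 were higher, and of the 9 regulators tested, 5. Among these regulators, *CBF1*, a DREB factor that binds the DRE core, rose from 0.564, 1.95 and 0.976 CPM to 19.4, 12.3 and 8.86 CPM (11.7-fold, log2FC 3.54, SE 0.44), and *RHL41* (*ZAT12*), a zinc finger factor, from 3.39, 5.84 and 4.39 CPM to 42.4, 67.8 and 21.6 CPM (9.77-fold, log2FC 3.29, SE 0.44). *DREB2A*, the factor of the drought and heat response, had 5.08, 5.71 and 7.16 CPM against 11.8, 11.5 and 7.37 CPM and was not called (log2FC 0.80, SE 0.22, adjusted p = 0.0257).

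In the abscisic acid pathway, calls were made among the targets at its end but not among the receptors. Of 55 genes 45 passed the filter, 14 of these were higher (9 with CPM over 1 required in all 6 libraries) and 0 were lower, with a median log2FC of 0.47. Of these 45, 7 are also in the cold and dehydration list, and all 7 were higher. The calls concentrated among the 9 targets, which had a median log2FC of 2.35. Of these 9, 7 were higher, and they are the same 7 genes shared with the cold and dehydration list. Among the 9 receptors 0 were called, with a median log2FC of −0.31. The receptor gene *PYL6* had 3.73, 2.99 and 2.77 CPM in wt and 1.25, 2.14 and 1.49 CPM in *ubp12/13* (log2FC −0.95, SE 0.27, adjusted p = 0.0274), just under the fold minimum, and it was called lower without *ubp12/13* replicate 2 (log2FC −1.21) or wt replicate 3 (log2FC −1.03). Among the protein phosphatases 2C, which the receptors inhibit, *HAI1* rose from 1.24, 0.909 and 1.63 CPM to 8.15, 7.99 and 18.0 CPM (9.08-fold, log2FC 3.18, SE 0.45, adjusted p = 0.00116) and *HAI2* from 0.564, 0.260 and 1.3 CPM to 2.98, 5.13 and 4.55 CPM (6.28-fold, log2FC 2.65, SE 0.43). *ABI1*, of the same phosphatase family, was above wt in all 3 mutant libraries without reaching the fold minimum (log2FC 0.75, SE 0.21, adjusted p = 0.0258), as was *ABF3*, a bZIP factor that binds the ABRE (log2FC 0.68, SE 0.14, adjusted p = 0.00732). Over the whole phosphatase family, 10 of 56 tested genes were higher and 0 were lower, and 6 were higher without wt replicate 1. *NCED3*, the enzyme that limits abscisic acid synthesis under drought, was at the edge of the call. It had 10.8, 10.6 and 17.6 CPM in wt and 24.1, 36.9 and 17.2 CPM in *ubp12/13*, so that the groups overlapped (log2FC 1.03, SE 0.30, adjusted p = 0.0292), and the call was lost without any 1 of 4 libraries (wt replicates 1 and 2, *ubp12/13* replicates 1 and 2) with an adjusted p of up to 0.101.

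**Figure D2:**
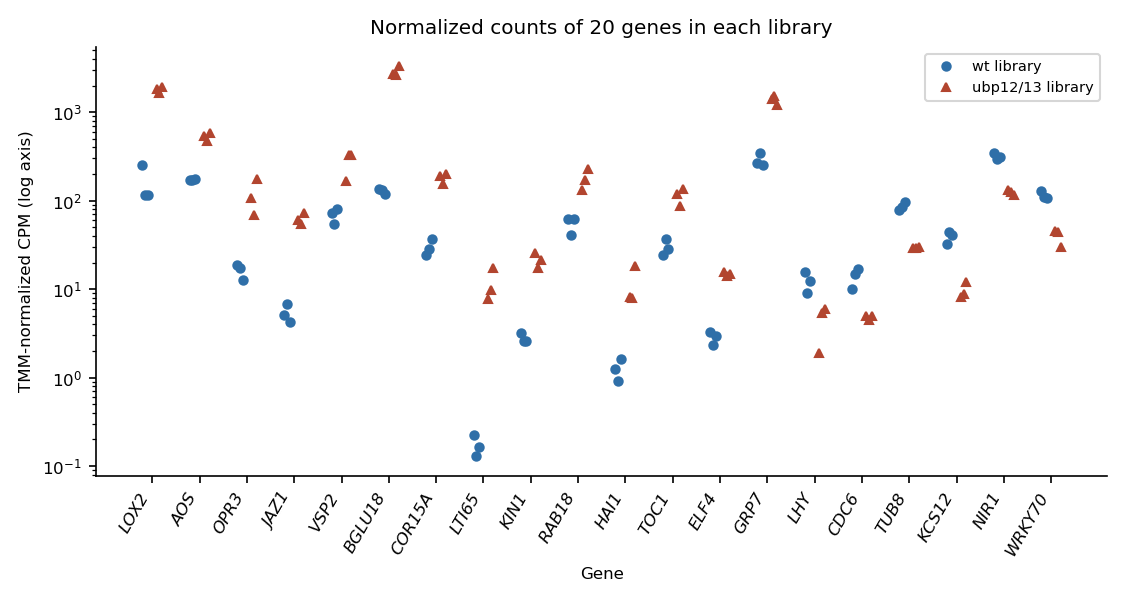
TMM-normalized CPM (log axis) of 20 genes in each library, wt as circles and *ubp12/13* as triangles, 3 libraries each. For the genes from *LOX2* to *GRP7* the mutant libraries lie above wt, as for *BGLU18* with 118 to 136 CPM in wt and 2613 to 3286 CPM in *ubp12/13*, and for those from *LHY* to *WRKY70* below it.

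Clock genes were called higher mainly in the evening set and lower mainly in the morning set, a difference between the sets that was not tested. In the plant clock, the morning factors CCA1 and LHY repress evening genes through the evening element (AAATATCT), and evening proteins repress the morning factors in turn. All seedlings were taken in the same window of 6 to 8 h after light on, so that the data give 1 time of day and no phase. Of the 18 evening and output genes, 10 were higher and 1 was lower, with a median log2FC of 1.16. Of the 16 morning genes, 1 was higher and 3 were lower, with a median of −0.41. The promoter of *GRP7* (chr2:9266508-9266807, minus strand) is shown because it holds several evening elements. Capitals mark the evening element and the ABRE core, on either strand.
GRP7: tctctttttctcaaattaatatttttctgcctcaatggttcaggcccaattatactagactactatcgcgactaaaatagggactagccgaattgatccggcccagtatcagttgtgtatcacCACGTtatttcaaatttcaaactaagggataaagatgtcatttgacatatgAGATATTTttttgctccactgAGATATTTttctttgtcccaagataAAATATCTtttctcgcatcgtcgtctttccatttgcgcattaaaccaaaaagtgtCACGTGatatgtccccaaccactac
The *GRP7* window holds 3 evening elements, starting at −76, −55 and −30. An evening element was found in 11 of the 34 clock promoters and in 6.02% of the promoters of all genes tested.

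*ELF4*, a subunit of the evening complex, had 3.27, 2.34 and 2.93 CPM in wt and 15.7, 14 and 14.7 CPM in *ubp12/13* (5.16-fold, log2FC 2.37, SE 0.16, adjusted p = 5.2e-05). *BOA*, which is close to a further subunit of that complex, rose from 0.677, 0.909 and 0.651 CPM to 3.6, 3.29 and 4.39 CPM (log2FC 2.31, SE 0.27). The pseudo-response regulator *TOC1* rose from 24.2, 37.0 and 28.6 CPM to 120.2, 86.1 and 134 CPM (3.79-fold, log2FC 1.92, SE 0.20), and its relative *PRR3* from 2.03, 3.38 and 1.14 CPM to 26.1, 25.9 and 19.8 CPM (10.7-fold, log2FC 3.42, SE 0.26). For each of these 4 genes, every mutant library was above every wt library, as for 23.5% of all genes tested. *PRR3*, *ELF4* and *BOA* were named for the size of their change, on the condition that their groups do not overlap. *GRP7*, an RNA-binding protein whose transcript is a clock output, had 264, 346 and 255 CPM against 1417, 1530 and 1201 CPM (4.79-fold, log2FC 2.26, SE 0.14). *GI*, an evening gene that acts between the clock and flowering, was above wt in every mutant library but under the fold minimum (66.8, 94.9 and 71.1 CPM against 149.5, 126 and 139 CPM, log2FC 0.83, SE 0.14, adjusted p = 0.00262), and it reached the minimum without wt replicate 2 (log2FC 1.00). Of the morning genes, *LHY* fell from 15.5, 9.09 and 12.4 CPM to 1.88, 5.31 and 6.04 CPM (log2FC −1.47, SE 0.36, adjusted p = 0.0150), a call that was lost without wt replicate 1 (log2FC −1.26, adjusted p = 0.0604). *CCA1* had 109, 97.3 and 117 CPM in wt and 39.4, 64.6 and 64.0 CPM in *ubp12/13*, all below wt and just under the fold minimum (log2FC −0.94, SE 0.18, adjusted p = 0.00499), and it was called without *ubp12/13* replicate 2 (log2FC −1.06), *ubp12/13* replicate 3 (log2FC −1.04) or wt replicate 2 (log2FC −1.01). *RVE2*, a MYB factor related to them, was the exception and rose from 3.73, 3.90 and 3.58 CPM to 16.7, 25.8 and 13.6 CPM (log2FC 2.33, SE 0.27). Over all 34 clock genes 11 were higher and 4 lower, and 8 were lower without *ubp12/13* replicate 2.

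**Figure D3:**
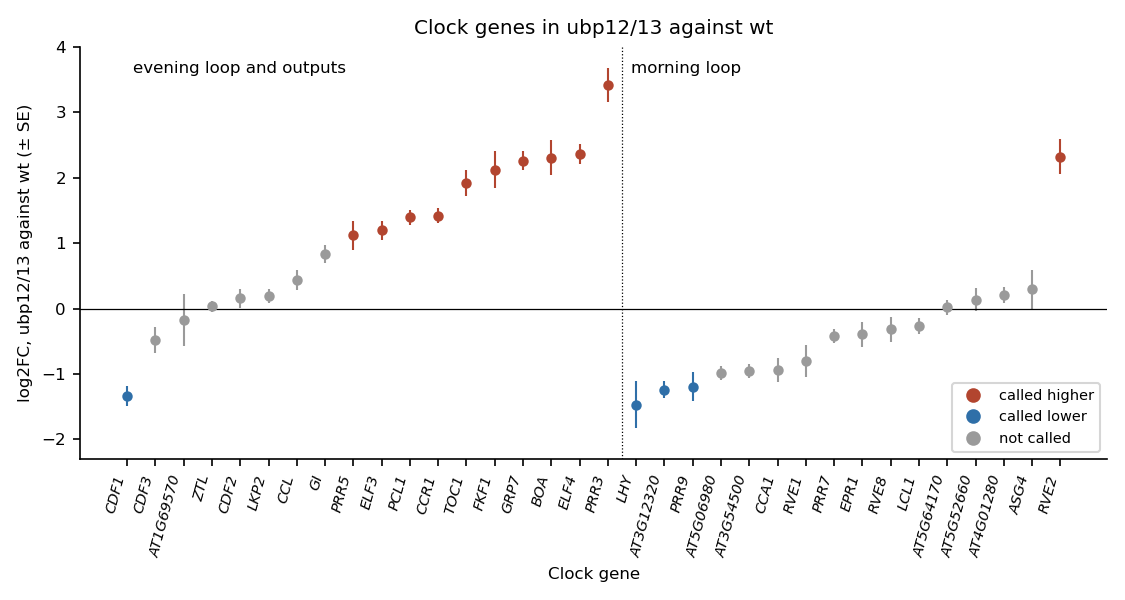
The log2FC of *ubp12/13* against wt, with its standard error, for the 18 evening and output genes (left) and the 16 morning genes (right) of the clock list. Of the evening genes 10 are called higher, up to *PRR3* at 3.42, and of the morning genes 3 are called lower, with *LHY* lowest at −1.47.

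Of 25 B-box and CONSTANS-like factors tested, some of which act between the clock and flowering, 4 were higher and 1 was lower, with a median log2FC of 0.06. *COL9*, a CONSTANS-like factor, rose from 4.18, 5.32 and 5.04 CPM to 42.2, 37.6 and 39.5 CPM (8.23-fold, log2FC 3.04, SE 0.12, adjusted p = 4.6e-06), while its relative *COL2* fell from 77.6, 55.6 and 80.5 CPM to 16.8, 32.8 and 18.1 CPM (log2FC −1.65, SE 0.26). Of 13 repressors of flowering tested 5 were higher. They include the MADS-box genes *FLC*, which vernalization silences through Polycomb repressive complex 2 (0.226, 0.519 and 0.488 CPM against 9.87, 7.81 and 8.00 CPM, log2FC 4.39, SE 0.29, adjusted p = 4.6e-05), and *MAF5* (1.35, 1.43 and 1.79 CPM against 9.79, 9.15 and 8.70 CPM, log2FC 2.61, SE 0.18). *SMZ*, an AP2-type repressor, rose from 2.93, 2.08 and 2.28 CPM to 8.38, 11.0 and 8.15 CPM (log2FC 1.90, SE 0.21). *SPL4*, which promotes flowering, was the only gene of the flowering list called lower, where 3 were called without wt replicate 1 (7.22, 8.70 and 10.7 CPM against 2.98, 3.05 and 2.98 CPM, log2FC −1.55, SE 0.18). Seedlings of both genotypes had almost no transcript of the floral gene *AG*, with 0 counts in wt and 1 in *ubp12/13*.

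Several families of stress-related transcription factors had more higher members than genes at large. Of 62 ERF and DREB factors tested, 19 were higher and 2 lower. Of these, 6 were tested through their *ubp12/13* values alone, 5 of them called higher, and with CPM over 1 required in all 6 libraries 8 were higher and 1 lower. *ERF11*, a repressor with an EAR motif, rose from 0.452, 2.08 and 0.813 CPM to 58.9, 51.8 and 55.6 CPM (49.7-fold, log2FC 5.64, SE 0.28, adjusted p = 1.5e-05), and *ERF2*, an activator of defence genes, from 20.3, 24.5 and 19.0 CPM to 87.3, 122 and 69.1 CPM (4.35-fold, log2FC 2.12, SE 0.21). Among 49 NAC factors tested, 13 were higher (8 with CPM over 1 required in all 6 libraries) and 2 lower, with *NAC036* (5.19, 2.08 and 1.95 CPM against 25.6, 16.8 and 28.4 CPM) at a log2FC of 2.87 (SE 0.34) and *NAC046*, which promotes leaf senescence, at 2.19 (SE 0.22). WRKY factors, which act in defence and senescence, went both ways, with 9 higher and 6 lower of 43. *WRKY46* rose from 3.50, 4.03 and 2.28 CPM to 38.9, 43.2 and 31.0 CPM (11.3-fold, log2FC 3.50, SE 0.20), and *WRKY70*, which acts downstream of salicylic acid, fell from 128, 109.6 and 107 CPM to 45.7, 44.5 and 29.9 CPM (log2FC −1.52, SE 0.16, adjusted p = 3.3e-04). The salicylic acid list had 0 higher and 2 lower genes of 18, but 2 higher genes without wt replicate 1 and 1 without *ubp12/13* replicate 2. Besides *WRKY70* these were *PBS3*, an enzyme of salicylic acid synthesis (8.58, 5.06 and 7.97 CPM against 1.96, 2.62 and 3.14 CPM, log2FC −1.48, SE 0.25). *BGL2* (*PR2*), a beta-1,3-glucanase that reports this hormone, had 82.3 CPM in wt replicate 1 but 2.47 and 0.488 CPM in the other wt libraries, against 0.784, 1.71 and 3.61 CPM in *ubp12/13*. Its log2FC was −3.86 (SE 1.37, adjusted p = 0.0622) and turned to 0.36 without wt replicate 1.

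Lists of leaf senescence and of starch had more higher than lower calls. Of 17 genes of chlorophyll breakdown and senescence tested, 8 were higher and 2 lower. The lower genes, named after their values were seen, were *NAP*, a NAC factor that promotes senescence (log2FC −1.98, SE 0.28, adjusted p = 0.00114), and *SEN1* (AT4G35770), a gene induced in the dark and in ageing leaves (log2FC −1.38, SE 0.34, adjusted p = 0.0148), whose call was lost without *ubp12/13* replicate 1, wt replicate 2 or wt replicate 3. *WRKY53*, an early regulator of leaf senescence, rose from 1.58, 2.47 and 0.976 CPM to 13.4, 7.75 and 12.4 CPM (log2FC 2.69, SE 0.33), *BCB*, a blue copper protein, from 24.9, 41.2 and 9.76 CPM to 136, 100.4 and 204 CPM (log2FC 2.52, SE 0.43), and *SAG29* (*SWEET15*), a sugar exporter, from 1.24, 1.3 and 2.11 CPM to 5.72, 12.1 and 6.98 CPM (log2FC 2.46, SE 0.38). *NYE1*, which removes the magnesium of chlorophyll, was above wt in all mutant libraries but changed little (18.5, 15.1 and 20.2 CPM against 25.2, 27.9 and 22.7 CPM, log2FC 0.50, SE 0.13, adjusted p = 0.0193). Of 27 genes of starch and sucrose metabolism 5 were higher and 0 lower. *CT-BMY*, the chloroplast beta-amylase of starch breakdown, had 227, 228 and 211 CPM in wt and 725, 646 and 618 CPM in *ubp12/13* (2.99-fold, log2FC 1.58, SE 0.09, adjusted p = 2.8e-05). *PWD*, which phosphorylates starch before its breakdown, rose from 107, 129 and 110.1 CPM to 347, 322 and 289 CPM (2.77-fold, log2FC 1.47, SE 0.11), and *SUS3*, a sucrose synthase, from 2.37, 1.95 and 2.28 CPM to 6.11, 8.72 and 8.31 CPM (log2FC 1.81, SE 0.21). *GBSS1*, which makes amylose, overlapped between the genotypes (log2FC 0.43, SE 0.17, adjusted p = 0.0821). The sugar exporter *SWEET12* of the phloem rose from 11.3, 18.4 and 14.5 CPM to 59.8, 59.2 and 64.4 CPM (4.16-fold, log2FC 2.06, SE 0.15).

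Flavonoid and anthocyanin genes had higher but no lower calls. Of 28 genes 19 passed the filter, 7 were higher and 0 lower, and 4 were higher without wt replicate 2, without wt replicate 3 or with CPM over 1 required in all 6 libraries. *PAP1* (*MYB75*), the MYB factor that switches anthocyanin synthesis on, rose from 1.35, 0.909 and 1.14 CPM to 5.64, 8.54 and 5.88 CPM (5.84-fold, log2FC 2.55, SE 0.28, adjusted p = 3.5e-04). *TT4*, chalcone synthase, the entry enzyme, had 21.2, 13.1 and 9.92 CPM against 29.4, 48.5 and 26.1 CPM (log2FC 1.21, SE 0.30, adjusted p = 0.0163). *DFR*, the first enzyme of the anthocyanin branch, had 2.14, 1.69 and 1.46 CPM in wt and 4.31, 20.2 and 5.88 CPM in *ubp12/13* (log2FC 2.52, SE 0.67, adjusted p = 0.0212). *ubp12/13* replicate 2 was the highest mutant library for all 3 genes. The call of *TT4* was lost without *ubp12/13* replicate 2 (log2FC 0.88), wt replicate 2 or wt replicate 3, and that of *DFR* without any 1 wt library, with an adjusted p of up to 0.0733, while without *ubp12/13* replicate 2 its log2FC was 1.499. *AT5MAT*, a malonyltransferase of anthocyanins, rose from 0.452, 0.260 and 0.488 CPM to 2.04, 4.03 and 2.43 CPM (log2FC 2.82, SE 0.45), and *GSTF12* (*TT19*), which carries anthocyanins to the vacuole, from 1.35, 1.95 and 1.3 CPM to 5.64, 9.15 and 5.96 CPM (log2FC 2.17, SE 0.29).

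Genes of redox and low-oxygen stress were also among the higher genes. Of 23 genes of reactive oxygen scavenging 4 were higher and 0 lower. *APX1*, the cytosolic ascorbate peroxidase, had 594, 587 and 373 CPM in wt and 1735, 1527 and 1586 CPM in *ubp12/13* (3.12-fold, log2FC 1.64, SE 0.17, adjusted p = 2.9e-04), and *GPX6*, a glutathione peroxidase, 96.9, 124 and 91.7 CPM against 404, 371 and 352 CPM (3.6-fold, log2FC 1.85, SE 0.13). Of 32 glutathione S-transferases tested 6 were higher and 0 lower, with *GSTU24* (8.58, 12.5 and 7.64 CPM against 75.1, 69.9 and 70.8 CPM) at a log2FC of 2.90 (SE 0.16). Of 9 core hypoxia genes tested 4 were higher and 0 lower. *ADH1*, alcohol dehydrogenase, rose from 1.35, 2.08 and 1.63 CPM to 28.8, 29.8 and 20.5 CPM (15.6-fold, log2FC 3.97, SE 0.23, adjusted p = 2.8e-05), and *PDC2*, the pyruvate decarboxylase before it in fermentation, from 38.4, 37.1 and 32.2 CPM to 99.1, 97.8 and 89.7 CPM (2.65-fold, log2FC 1.41, SE 0.10). *RBOHD*, the NADPH oxidase of the plasma membrane, rose from 31.6, 40.1 and 28.6 CPM to 146, 79.7 and 197 CPM (4.20-fold, log2FC 2.07, SE 0.30).

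Iron genes were called in both directions. Of 21 tested, 8 were higher and 4 lower, and 4 were higher with CPM over 1 required in all 6 libraries. The factors *bHLH38*, *bHLH39* and *BHLH100*, which are induced when iron is short, had the largest fold changes but unequal mutant libraries. *bHLH38* had 0.564, 1.3 and 0 CPM in wt and 6.19, 54.0 and 40.2 CPM in *ubp12/13* (log2FC 5.65, SE 1.03, adjusted p = 0.00399), *bHLH39* 0.452, 1.43 and 0 CPM against 5.17, 25.6 and 19.6 CPM (log2FC 4.66, SE 0.83), and *BHLH100* 0.339, 1.69 and 0 CPM against 7.60, 39.7 and 25.2 CPM (log2FC 5.09, SE 0.86). *ubp12/13* replicate 1 was far below the other mutant libraries for each of them, yet above all of wt. The first 2 are neighbours on chromosome 3 and similar in sequence. *NAS3*, a nicotianamine synthase of iron transport, fell from 9.82, 13.4 and 13.8 CPM to 2.98, 2.62 and 1.49 CPM (log2FC −2.36, SE 0.25).

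Lipid transfer proteins, small secreted proteins of the plant surface and of defence, and UDP-glycosyltransferases, which attach sugars to hormones and secondary metabolites, each had 11 higher genes of 43 tested, with 4 and 2 lower. The lipid transfer list reached this count with 5 genes tested through their *ubp12/13* values alone, all of them called, and with CPM over 1 required in all 6 libraries 4 were higher. Among these, *AT2G37870* had 0 counts in wt against 2.82, 7.57 and 2.12 CPM in *ubp12/13*, which is at least 10.3-fold higher (against 3 counts in each wt library), and *LTP3* had 0.452, 0 and 0.163 CPM against 1.96, 10.5 and 16.1 CPM (log2FC 5.37, SE 1.09, adjusted p = 0.00676). *AT4G33550* rose from 0.452, 0.260 and 0.976 CPM to 7.37, 7.93 and 5.72 CPM (log2FC 3.70, SE 0.34). Among the glycosyltransferases, *UGT73B3* rose from 2.37, 2.99 and 4.55 CPM to 13.5, 14.5 and 11.1 CPM (log2FC 2.02, SE 0.22).

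**Figure D4:**
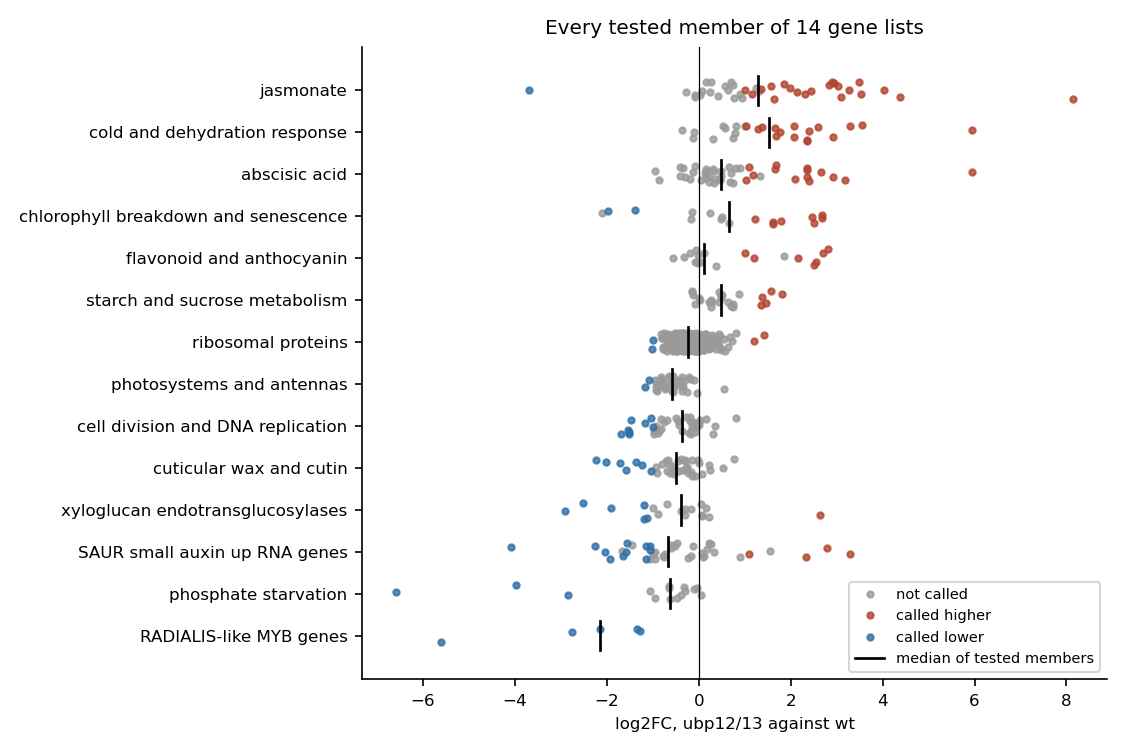
The log2FC of *ubp12/13* against wt for every tested member of 14 gene lists, with called members in colour and the median of each list as a bar. The medians are 1.28 for jasmonate and 1.53 for cold and dehydration response, −0.23 for ribosomal proteins, −0.58 for photosystems and antennas, and −2.14 for the RADIALIS-like MYB genes.

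All 5 RADIALIS-like MYB genes tested (of 6) were lower, with log2FC values of −1.27 to −5.61. Of the 5, 1 was tested through its wt values alone, and with CPM over 1 required in all 6 libraries 3 were lower. These short single-repeat MYB proteins are relatives of *RADIALIS*, a regulator of flower asymmetry known from *Antirrhinum*. *MEE3* fell from 12.0, 11.8 and 12.7 CPM to 0.235, 0.427 and 0 CPM (log2FC −5.61, SE 0.38, adjusted p = 5.8e-05), *RL6* from 6.77, 10.3 and 8.30 CPM to 1.18, 1.28 and 1.25 CPM (log2FC −2.75, SE 0.22), and *RL4* from 16.4, 15.7 and 15.5 CPM to 3.45, 3.54 and 3.76 CPM (log2FC −2.14, SE 0.12). Replicates of each genotype differed little beside the step between them.

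Cell division genes had lower but no higher calls. Of 41 genes tested, 8 were lower and 0 higher, among them 7 of the 22 cyclins and B-type cyclin-dependent kinases but 1 of the 19 replication genes. *CYCB1;3*, a B-type cyclin of mitosis, fell from 4.18, 4.28 and 4.07 CPM to 1.80, 1.1 and 1.02 CPM (log2FC −1.68, SE 0.25, adjusted p = 0.00166), and *CDKB1;2* from 3.27, 2.73 and 4.23 CPM to 1.33, 1.1 and 1.1 CPM (log2FC −1.52, SE 0.26). *CDC6*, which licenses replication origins, fell from 9.93, 14.9 and 17.1 CPM to 4.94, 4.45 and 5.02 CPM (log2FC −1.53, SE 0.20). The replication genes *MCM2* (log2FC −0.75, SE 0.14, adjusted p = 0.00494) and *PCNA1* (log2FC −0.27, SE 0.17, adjusted p = 0.255) stayed under the fold minimum. The mitotic transcripts are rare in whole seedlings, and the number called fell to 4 without wt replicate 1 and to 5 without *ubp12/13* replicate 3. *TUB8*, a beta-tubulin, fell from 78.6, 85.3 and 96.1 CPM to 28.8, 29.3 and 30.1 CPM (log2FC −1.56, SE 0.10, adjusted p = 3.8e-05), and *TUA2*, an alpha-tubulin, from 297, 272 and 257 CPM to 137, 142 and 119 CPM (log2FC −1.05, SE 0.10), which passed under the fold minimum without wt replicate 1 (log2FC −0.995) or *ubp12/13* replicate 3 (log2FC −0.98). Of 22 tubulins and actins tested 3 were lower in all, and 1 without wt replicate 1, without *ubp12/13* replicate 3 or with libraries scaled by totals alone.

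Lists of cell expansion had more lower than higher calls, though most members were not called. Of 40 SAUR genes tested (of 79), small auxin-induced genes that act in cell expansion, 11 were lower and 4 higher, with a median log2FC of −0.68. Of these 40, 5 were tested through their wt values alone, 3 of them called lower, and with CPM over 1 required in all 6 libraries 6 were lower and 0 higher. *AT4G34790* fell from 1.58, 2.08 and 1.79 CPM to 0.0784, 0.0610 and 0.157 CPM (log2FC −4.09, SE 0.44, adjusted p = 3.5e-04), while *AT1G56150* rose from 1.35, 0.519 and 1.46 CPM to 7.99, 13.5 and 11.1 CPM (log2FC 3.30, SE 0.34). A run of 5 SAUR genes next to each other, AT1G29420 to AT1G29460 (chr1:10301377-10308246), was lower as a whole, but its copies are similar and may share reads. Xyloglucan endotransglucosylases, which loosen and rejoin wall polymers, had 6 lower and 1 higher of 19. Of the 6, 3 were tested through their wt values alone, and with CPM over 1 required in all 6 libraries 3 were lower and 0 higher. *XTH25* fell from 2.6, 4.93 and 1.79 CPM to 0.235, 0.244 and 0.784 CPM (log2FC −2.91, SE 0.54) and *XTH17* from 2.6, 3.77 and 2.44 CPM to 0.548, 0.305 and 0.705 CPM (log2FC −2.52, SE 0.36), whereas *XTH18* rose (0.452, 1.04 and 0 CPM against 2.27, 3.11 and 4.70 CPM, log2FC 2.65, SE 0.58). Of 18 expansins 3 were lower and 0 higher, against 5 lower without *ubp12/13* replicate 2 and 1 higher without any 1 mutant library. The lower genes include *EXPA8* (224, 141 and 169 CPM against 68.7, 101 and 59.9 CPM, log2FC −1.22, SE 0.22). The aquaporin *PIP1;5* fell from 219, 266 and 263 CPM to 76.8, 75.7 and 86.0 CPM (log2FC −1.65, SE 0.10, adjusted p = 4.0e-05).

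Of 40 cutin and wax genes tested (of 57), 7 were lower and 0 higher. *KCS12*, a ketoacyl-CoA synthase of very long chain fatty acids, fell from 32.5, 44.4 and 41.2 CPM to 8.15, 8.85 and 12.1 CPM (log2FC −2.02, SE 0.17, adjusted p = 1.2e-04), and *CYP86A4*, a fatty acid hydroxylase of cutin synthesis, from 7.56, 5.97 and 5.04 CPM to 1.80, 1.83 and 2.04 CPM (log2FC −1.72, SE 0.21). The count of 7 went to 3 without wt replicate 1 and to 4 without *ubp12/13* replicate 1 or 2. Of the 7, 2 were tested through their wt values alone, and with CPM over 1 required in all 6 libraries 4 were lower. In the cellulose synthase-like family, 5 genes were higher and 3 lower of 25. *CSLA10* of the mannan synthases rose from 4.85, 2.6 and 4.23 CPM to 114, 103 and 149 CPM (31.1-fold, log2FC 4.96, SE 0.23), and *CSLA14* of the same group fell from 5.42, 6.10 and 6.34 CPM to 1.49, 1.22 and 2.12 CPM (log2FC −1.89, SE 0.23), so that members of 1 subfamily moved in opposite directions. None of the 9 cellulose synthases themselves was called.

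In 2 further hormone lists calls went both ways. For gibberellin, 2 of 18 genes were higher and 2 lower (11.1% each, against 5.94% and 4.02% of all genes tested). With counts thinned to the smallest library total 1 was higher, as *GID1B* fell under the fold minimum (log2FC 0.89). With CPM over 1 required in all 6 libraries 1 was lower. *GA3OX1*, which makes the active hormone, fell from 4.52, 4.54 and 1.95 CPM to 0.627, 0.305 and 1.18 CPM (log2FC −2.45, SE 0.47, adjusted p = 0.00516), *GA2OX2*, which inactivates it, rose from 1.47, 2.21 and 1.14 CPM to 6.90, 3.97 and 6.66 CPM (log2FC 1.83, SE 0.32), and the receptor gene *GID1B* rose from 5.08, 5.84 and 5.53 CPM to 13.6, 9.58 and 14.3 CPM (log2FC 1.19, SE 0.19). In the cytokinin list, *IPT3*, a synthesis enzyme, fell from 8.80, 7.92 and 6.18 CPM to 1.41, 2.75 and 1.1 CPM (log2FC −2.09, SE 0.31), and *CKX5*, which degrades the hormone, rose from 1.02, 0.519 and 0.163 CPM to 3.6, 3.42 and 4.15 CPM (log2FC 2.58, SE 0.38). With *ARR9*, a response regulator (log2FC −1.11, SE 0.16), these were all the calls among 16 cytokinin genes.

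Phosphate and nitrate genes had lower but no higher calls. Of 15 phosphate starvation genes tested (of 22), 3 were lower and 0 higher, and all 3 were tested through their wt values alone. The promoter of 1 of them, *AT5G03545*, is shown because it holds P1BS (GNATATNC), the motif that the phosphate regulator PHR1 binds, 26 bases before the start of the gene (chr5:894332-894631, plus strand). Capitals mark P1BS and a DRE core.
AT5G03545: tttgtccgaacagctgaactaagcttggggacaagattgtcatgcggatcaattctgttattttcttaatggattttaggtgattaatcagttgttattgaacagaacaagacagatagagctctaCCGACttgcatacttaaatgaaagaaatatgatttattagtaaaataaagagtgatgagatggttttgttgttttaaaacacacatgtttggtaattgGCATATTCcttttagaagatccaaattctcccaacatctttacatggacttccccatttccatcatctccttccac
*AT5G03545* (*AT4*), a noncoding RNA that sequesters a microRNA of the phosphate response, had 4.63, 3.12 and 5.20 CPM in wt and 0.0784, 0.183 and 0.549 CPM in *ubp12/13* (log2FC −3.97, SE 0.46, adjusted p = 4.8e-04). *MGDC* (*MGD3*), an enzyme that makes galactolipids in place of phospholipids, fell from 2.37, 2.08 and 2.44 CPM to 0, 0.244 and 0.705 CPM (log2FC −2.84, SE 0.61, adjusted p = 0.00820). *PEPC1*, a phosphatase that recycles phosphate from lipid head groups, had 0.903, 1.17 and 1.3 CPM in wt and 0 counts in *ubp12/13*, at least 5.16-fold lower (against 3 counts in each mutant library). *SPX1*, a phosphate sensor, was below wt in all mutant libraries (20.1, 33.0 and 37.9 CPM against 14.3, 17.1 and 14.7 CPM, log2FC −0.96, SE 0.21, adjusted p = 0.00911), and it passed the fold minimum without wt replicate 1 (log2FC −1.20) or *ubp12/13* replicate 2 (log2FC −1.05). P1BS itself was found in 7 of the 15 promoters and in 6.20% of all. With a filter of CPM over 1 in all 6 libraries, 0 genes of this list were called, as those that fell were no longer tested. Of 20 nitrate genes tested 3 were lower and 0 higher, but 1 was higher without *ubp12/13* replicate 2 or wt replicate 1. *NIR1*, nitrite reductase, fell from 342, 296 and 313 CPM to 134, 125 and 116 CPM (2.54-fold, log2FC −1.35, SE 0.09, adjusted p = 6.0e-05), and *GLN1;4*, a cytosolic glutamine synthetase, from 12.4, 6.62 and 6.99 CPM to 1.65, 1.40 and 0.784 CPM (log2FC −2.76, SE 0.33).

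Receptor kinases of the cell surface had more lower than higher calls in the 3 families described here, though for the cysteine-rich kinases this depended on the setting. Of 12 wall-associated kinases tested, which bind pectin, 4 were lower and 1 higher. *WAK2* fell from 49.8, 30.9 and 35.1 CPM to 12.9, 12.0 and 16.9 CPM (log2FC −1.48, SE 0.20). *WAKL6* rose from 5.53, 9.09 and 10.2 CPM to 36.3, 20.2 and 49.7 CPM (log2FC 2.11, SE 0.35). The count of 4 went to 2 without wt replicate 1 or *ubp12/13* replicate 1. Among 29 cysteine-rich receptor-like kinases 5 were lower and 2 higher. Yet 17 of the 29 had a positive log2FC, and the median was 0.20. With libraries scaled by totals alone, 4 were lower and 5 higher. *CRK4* fell from 21.6, 18.6 and 12.5 CPM to 0.0784, 0.183 and 1.65 CPM (log2FC −4.85, SE 0.56, adjusted p = 4.6e-04), and *CRK10* rose from 43.2, 61.9 and 40.7 CPM to 209.9, 88.0 and 266 CPM (log2FC 1.95, SE 0.36). The lower count was 3 without wt replicate 1 or *ubp12/13* replicate 1. Among 41 lectin receptor kinases 5 were lower and 1 higher, and 3 were lower without *ubp12/13* replicate 1. Of the lower genes, 1 wall-associated, 2 cysteine-rich and 2 lectin receptor kinases were tested through their wt values alone. With CPM over 1 required in all 6 libraries, 2 wall-associated, 2 cysteine-rich and 3 lectin receptor kinases were lower. At least 2 cysteine-rich kinases were then higher.

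Large families of basic functions showed few calls, which does not mean that their members were unchanged. All mutant libraries lay below all wt libraries for 23.1% of all genes tested. This held for 42 of 46 photosystem and antenna genes and 13 of 18 Calvin-Benson cycle enzymes. It also held for 124 of 316 ribosomal protein genes and 11 of 38 proteasome subunits. Of 316 ribosomal protein genes tested, 2 were higher and 2 lower, with a median log2FC of −0.23. None of 38 proteasome subunits and none of 18 Calvin-Benson cycle enzymes was called, and of 46 photosystem and antenna genes 2 were lower, but their medians were −0.07, −0.35 and −0.58. The last value goes with the lower sum of the mesophyll markers given above. Those markers include antenna genes themselves, so that the sum is not a separate readout of mesophyll content. The part of mesophyll content in this median was not tested. Of 170 F-box genes tested (of 635 with counts) 8 were higher and 2 lower. In the chromatin lists, described whatever their calls, 2 of 24 Polycomb genes and partners were higher (8.33%), a share near the 5.94% of all genes tested. They were the H3K27 demethylase *JMJD5* (1.13, 1.56 and 2.6 CPM against 5.25, 7.5 and 6.43 CPM, log2FC 1.92, SE 0.29) and *RING1B* of Polycomb repressive complex 1 (3.50, 4.80 and 3.42 CPM against 8.62, 8.05 and 9.56 CPM, log2FC 1.15, SE 0.17). Of the genes of Polycomb repressive complex 2, 0 of 10 were called. Of 13 H2A and H2A.Z genes, *HTA4* alone was called (3.27, 2.47 and 4.23 CPM against 0.157, 0.305 and 0.392 CPM, log2FC −3.47, SE 0.38). *HTA4* was tested through its wt values alone, and it lies in a run of 4 neighbouring genes called lower (chr4:7879558-7893761). Of 25 ubiquitin-specific proteases, *UBP12* alone was called.

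Promoters of the called genes differed in the motifs they hold. Each promoter of 250 bases before to 50 after the start was searched on both strands for 8 motifs, in 17902 genes tested. The ABRE core (ACGTG) was found in 42.8% of the promoters of higher genes, 26.1% of lower genes and 27.7% of all genes tested, and the G-box (CACGTG), which contains it, in 15.3%, 6.53% and 9.0%. The evening element (AAATATCT) was found in 11.8%, 5.56% and 6.02%, and the W-box core (TTGAC) of WRKY factors in 57.3%, 47.9% and 50.3%. The DRE core (CCGAC) was found in 18.0%, 12.5% and 16.6%, and the GCC-box (GCCGCC) of ERF factors in 2.82%, 1.81% and 2.74%. The telo-box (AAACCCTA), common in promoters of translation genes, was less frequent in both, in 2.44% and 3.89% against 5.59% of all genes, and P1BS was found in 6.77%, 6.53% and 6.20%. These are shares of matching letters, not of bound sites, and genes in a family share promoter sequence. An example of a G-box within the window is that of *BGLU18* (chr1:19514739-19515038, plus strand), with the G-box in capitals, which starts 40 bases after the start of the gene.
BGLU18: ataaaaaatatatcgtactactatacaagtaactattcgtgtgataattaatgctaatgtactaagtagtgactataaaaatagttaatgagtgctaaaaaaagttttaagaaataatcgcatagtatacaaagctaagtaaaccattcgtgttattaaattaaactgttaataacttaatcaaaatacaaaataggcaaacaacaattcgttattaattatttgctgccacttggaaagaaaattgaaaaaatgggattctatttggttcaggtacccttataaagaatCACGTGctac

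Peaks of H2Aub1 increase in *ubp12/13*, which the authors called in rosette leaves after 15 days on medium and 2 weeks on soil, with 2 replicates per genotype, were set beside these genes. Of 17517 tested protein-coding genes, 338 (1.93%, 95% exact binomial interval 1.73% to 2.14%) had a peak in their first 1 kb. Among higher genes the share was 5.77% (60 of 1039, 4.44% to 7.37%), and among lower genes 5.58% (38 of 681, 3.98% to 7.58%). The intervals cover counting error only. Both called groups were thus above the share of all tested genes, and their own intervals overlapped. Most called genes of either direction had no such peak. The described lists with the most called genes under a peak were lipid transfer proteins (4 of 15 called), ERF and DREB factors (3 of 21), and chitinases and beta-1,3-glucanases (3 of 5). *CBF1*, *LTP3*, *RBOHD* and *SUS3* were higher genes with a peak, and *NAS3*, *IPT3*, *XTH17*, *KCS12* and *CYP71B22* lower genes with a peak. *CYP71B22*, a cytochrome P450, fell from 5.31, 5.45 and 5.04 CPM to 0.157, 0.366 and 0.157 CPM (log2FC −4.41, SE 0.31). The ChIP-seq samples were older plants and rosette leaves only, so that peaks and transcripts were not measured in the same material.

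**Figure D5:**
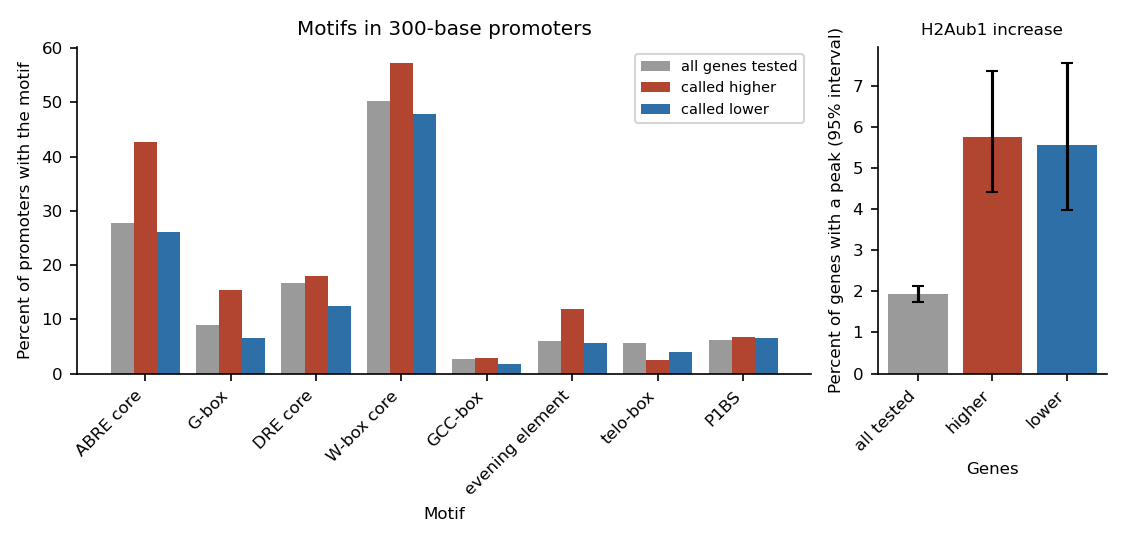
Left, percent of promoters that hold each of 8 motifs among all genes tested, genes called higher and genes called lower in *ubp12/13*. Right, percent of protein-coding genes with a peak of H2Aub1 increase in the first 1 kb, with 95% exact binomial intervals. The ABRE core is at 42.8% among higher genes and 27.7% among all, and the peak share is 5.77% among higher and 5.58% among lower genes, against 1.93% of all.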

How the data were processed

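RNA was extracted from 3 wt and 3 *ubp12/13* samples and sequenced from libraries that do not keep strand, so that reads of overlapping and antisense genes, and those of near-identical copies, cannot be told apart. The deposited counts per gene are raw, and were made by the authors with cutadapt 1.18, TopHat and HTSeq 0.11.1 on TAIR10. Here genes above 1 CPM in 2 or more of the libraries were tested with edgeR 4.0.16 (R 4.3.3; TMM, quasi-likelihood F test, two-sided, Benjamini-Hochberg adjustment over 17916 genes), with a call at an adjusted p below 0.05 and a log2 change of 1 or more in either direction. SE is the log2FC divided by the square root of F. CPM values are TMM-normalized. DESeq2 1.42.0 was an alternative, and the fit was tested on simulated data.

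The gene lists, and the rule for named genes (key genes of each described list, and up to 4 called genes with the largest change whose groups do not overlap, fewer where a list is given briefly), were chosen with earlier results of these data known, and list membership was corrected from annotation text alone. The deposited peak lists of H2Aub1 were made by the authors with MACS2 and MAnorm, and merged over replicates. The score column deposited by the authors beside each peak holds a constant 1, so peaks were used by position only. Promoters were taken from RefSeq (TAIR10.1). The 3 samples of a genotype were labelled as biological replicates, and their counts differed by more than sampling noise. Counting intervals are exact and do not cover biological spread.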

Additional observations from a re-analysis of the deposited data

How the results depend on the processing

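With no fold minimum, 2860 genes were higher and 2712 lower, against 1064 and 720. Leaving out each library in turn gave 919 to 1142 higher and 614 to 723 lower genes. A filter of CPM over 1 in all 6 libraries tested 16263 genes, which leaves out those near 0 in 1 genotype, and called 736 and 493. DESeq2 called 1019 and 675, counts thinned to the smallest library 1020 and 693, and library totals alone 1362 and 539. The log2FC of *BGL2* ranged from −4.50 to 0.36 when libraries were left out, and reversed to 0.36 without wt replicate 1. Counting peaks over the whole gene body gave 2.27% of all tested genes against 1.93%, which is outside the interval of the latter.

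Replicate numbers did not pair the samples: deviations from the group means correlated at −0.058, −0.169 and −0.116 for numbers 1, 2 and 3. A fit with the replicate number as a block called 1017 and 684 genes, and of the genes named here only *NCED3* lost its call (log2FC 0.98). No replicate correlated best with its own number.

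Of 132 named genes, 117 were called, and 11 of these lost the call in at least 1 setting that still tested them. The cause of these losses was not tested. A setting whose filter left a gene out was not counted as a loss, as for *ERF11*, *CBF1*, *FLC* and other genes rare in 1 genotype. Of 2220 list counts under another setting, 1890 stayed within 1.5 times the main count. Rare transcripts were limited by depth: 3 counts correspond to a mean of 0.405 CPM in wt and 0.218 CPM in *ubp12/13*.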

Other observations

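Runs of adjacent genes called in the same direction were also found among genes not described above by position. The nitrilase genes *NIT2*, *NIT1* and *NIT3*, the cytochrome P450 genes *CYP89A7*, *CYP89A6* and *CYP89A5*, and the lipid transfer genes *AZI1*, *EARLI1* and *AT4G12490* each formed such a run. Copies within each run are similar, and reads could not be assigned between them with certainty. These 3 runs, given as examples, were higher in *ubp12/13*, at chr3:15983199-15995811, chr1:24120723-24129557 and chr4:7401087-7410406. The longest run held 6 higher genes, from *PMZ* to *GATL10* (chr3:10520443-10590685). Other runs were lower, such as *SCPL11*, *SCPL13* and *SNG1* (chr2:9774749-9790335).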
